A study of Mus musculus with 2 samples.

Results

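The Serpinb genes of mouse chromosome 1 encode clade B serpins, which are intracellular relatives of the secreted protease inhibitors. The 8 members described here are Serpinb2, Serpinb5, Serpinb7, Serpinb8, Serpinb10, Serpinb11, Serpinb12 and Serpinb13. They were chosen by the accessibility of the Serpinb2 promoter, which was among the promoters with the largest gain in MOF cKO epithelial-like cells, so that gain is a description. Regions were taken from the peak lists of both libraries if they lay within 500 bp of a start site, inside a gene body or between the members. The cluster runs over 749312 bp (mm10, chr1:106861173-107610484) and held 136 merged regions, of 369634 in all. Of these, 85 had a peak in both libraries, of 214119 such regions over all chromosomes.

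Open chromatin in single cells was profiled by ATAC-seq in E16.5 embryonic back skin, with 1 Control library and 1 MOF cKO library. The cKO embryos carried MOFfl/fl with K14Cre, in which the keratin 14 promoter drives Cre in skin epithelium, and the controls are littermates labelled Control with no further alleles given. Cells of both genotypes carried K14-H2BGFP, and sorted GFP-positive and GFP-negative cells were mixed again at a stated ratio of 5:1, on a mixed C57Bl/6J and CD-1 background. Per the study's methods the assay used 1 pair of samples, and whether a sample came from a single embryo is not given in the sources used here. With 1 library per genotype no difference between genotypes can be tested, so values carry 95% intervals for counting error only, and "higher" or "lower" with a fold describes these libraries. Levels are CPM (cut sites per 1000000), the Tn5 cut sites in a region scaled to the sites that the same cells had in all regions shared by both libraries, for each class and library.

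By marker genes, 1694 Control and 2644 MOF cKO cells were epithelial-like, 659 and 1254 were fibroblast-like, and 46 and 281 were immune-like. In the Control library 68.3% of cells were epithelial-like, against 60.8% in the MOF cKO library. Sorted cells had been mixed again, so these are not the shares in the skin. A shallow epithelial-like cluster, with a median of 2517 sites per cell, held 306 Control and 4 MOF cKO cells. Epithelial-like cells had a median of 65620.5 sites per cell in Control and 84504 in MOF cKO. All 12 epithelial markers were measured, and their summed promoter level in epithelial-like cells was 416 CPM in Control and 378 CPM in MOF cKO, against 48.6 and 51.6 CPM in fibroblast-like cells. Immune markers summed to 19.5 and 31.7 CPM in epithelial-like cells and to 426 and 414 CPM in immune-like cells. Kat8, which encodes MOF, had a promoter level of 48.7 CPM in epithelial-like cells of the Control library and 36.7 CPM in those of MOF cKO, but a promoter peak does not show whether the floxed part was deleted. The median log2 change of all 15862 promoters in epithelial-like cells was -0.42, and in fibroblast-like cells -0.03. The libraries shared 21 barcode sequences.

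Clade B serpins act mostly on proteases inside cells or at their surface, and several are made by stratified epithelia. Serpinb2, also called plasminogen activator inhibitor 2, inhibits urokinase and is made by activated macrophages and stressed keratinocytes. Serpinb5, also called maspin, lacks inhibitory activity and is made by epithelial cells. Serpinb7, Serpinb12 and Serpinb13 are known in the epidermis, Serpinb8 inhibits furin, and Serpinb10 is known in blood-forming cells. Serpinb11 is an epithelial member whose role is less clear. In mm10 the order from the left is Serpinb5, Serpinb12, Serpinb13, the Serpinb3 paralogs, Serpinb11, Serpinb7, Serpinb2, Serpinb10 and Serpinb8, and all 8 members lie on the plus strand.

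The sequences shown first are the bases before the Serpinb2 start site and pieces of 4 regions that were higher in MOF cKO epithelial-like cells. They were read from RefSeq GRCm38.p6, which is mm10, on the plus strand. The 250 bases before the first Serpinb2 start site lie at chr1:107511173-107511422, just before the gene (ENSMUSG00000062345, chr1:107511423-107535478). Capitals mark the letters TTGCNNAA, a C/EBP motif, and TATAAA, the box that TBP is known to bind, searched on both strands.
Serpinb2 upstream: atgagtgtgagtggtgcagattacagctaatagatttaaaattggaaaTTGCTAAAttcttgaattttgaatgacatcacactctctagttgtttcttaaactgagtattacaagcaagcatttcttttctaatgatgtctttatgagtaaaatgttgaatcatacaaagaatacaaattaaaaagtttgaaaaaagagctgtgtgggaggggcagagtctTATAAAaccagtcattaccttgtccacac

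The pieces of regions are 120 bases each, and capitals mark the AP-1 letters TGACTCA or their reverse complement TGAGTCA where the region held them. The first is from the region nearest upstream of Serpinb2 that was 2-fold or more higher (chr1:107505973-107506092), chosen for display after its values were seen. The others are from the 3 regions outside promoters with the largest gain, at chr1:107583000-107583119, chr1:107495757-107495876 and chr1:107419684-107419803. The sequence from between Serpinb7 and Serpinb2 holds no capitals because its region held no match, which says only that these letters are not in it.
Upstream of Serpinb2: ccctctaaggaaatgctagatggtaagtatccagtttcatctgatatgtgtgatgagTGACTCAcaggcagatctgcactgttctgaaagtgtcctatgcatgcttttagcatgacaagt
Between Serpinb10 and Serpinb8: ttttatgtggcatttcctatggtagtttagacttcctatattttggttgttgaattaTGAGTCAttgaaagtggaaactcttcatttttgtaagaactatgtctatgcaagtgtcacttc
Between Serpinb7 and Serpinb2: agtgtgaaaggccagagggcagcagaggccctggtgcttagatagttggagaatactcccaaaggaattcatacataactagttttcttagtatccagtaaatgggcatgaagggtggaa
Serpinb7 intron: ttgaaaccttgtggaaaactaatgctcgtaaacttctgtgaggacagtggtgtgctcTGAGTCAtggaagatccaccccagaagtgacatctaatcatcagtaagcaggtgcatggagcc

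The Serpinb2 promoter is the region that chose the cluster. In epithelial-like cells it held 59 sites in Control, or 0.504 CPM (0.339 to 0.721), and 1967 sites in MOF cKO, or 9.51 CPM (8.92 to 10.1). The MOF cKO level was 18.9-fold higher, a log2 change of 4.24 (3.71 to 4.82). Control sites were counted over the Control peak, chr1:107510901-107511647, and MOF cKO sites over the wider MOF cKO peak, chr1:107510929-107511823. The part of the width in the gain was not tested. In fibroblast-like cells, which the rule did not use, the promoter held 10 and 12 sites, or 0.252 CPM in Control and 0.193 CPM in MOF cKO. The log2 change there was -0.38 (-2.36 to 1.67). At these counts neither a gain nor a loss was detectable in fibroblast-like cells.

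In immune-like cells the Serpinb2 promoter had 1.05 CPM from 2 sites in Control and 2.28 CPM from 22 sites in MOF cKO. The Serpinb2 level in MOF cKO epithelial-like cells was thus above that of immune-like cells of either library. Immune-like cells made up 1.85% of the Control library and 6.46% of the MOF cKO library, and their part in the Serpinb2 level was not tested. A region at -14.3 kb from the Serpinb2 start site (chr1:107496682-107497486) was high in immune-like cells, at 20.9 CPM in Control and 32.9 CPM in MOF cKO. In epithelial-like cells that region had 0.307 CPM in Control and 0.406 CPM in MOF cKO.

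The gain in Serpinb2 was not even over the epithelial-like clusters, which were found without the regions of this locus. The 4 clusters made mostly of Control cells had 0 to 0.761 CPM among Control cells. Among MOF cKO cells the cluster of 1130 cells had 12.4 CPM (11.4 to 13.4) and the cluster of 733 cells, in which 3 of 11 suprabasal markers stood over 1.5-fold above the mean of the clusters of 1130 and 580 cells, had 11.1 CPM (9.85 to 12.4). The cluster of 580 cells had only 2.02 CPM (1.46 to 2.73). The 83 cells of a cluster with a high doublet score (median 0.90, on a scale up to 1) had 8.04 CPM (5.93 to 10.7). The 78 cells of a cluster with a median of 20276 sites had 3.52 CPM (0.727 to 10.3). Within the MOF cKO library, the interval of the cluster of 580 cells lay below those of both larger clusters.

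Only 40 MOF cKO cells lay in the 4 clusters made mostly of Control cells. Their Serpinb2 promoter held 2 sites, or 0.855 CPM (0.0217 to 4.77), while the other 2604 MOF cKO epithelial-like cells had 9.60 CPM (9.01 to 10.2). In the same 40 cells Serpinb11 stood at 10.7 CPM (5.61 to 18.5), against 3.76 CPM in the other MOF cKO cells and 8.77 CPM in Control cells. Of its 25 sites there, 23 came from 23 cells of 1 cluster, whose 517 Control cells had 14.5 CPM. Serpinb10 had 13.3 CPM (7.50 to 21.7) in the 40 cells, against 7.27 CPM (6.75 to 7.81) and 11.1 CPM, with overlapping intervals. The intervals of Serpinb5, Serpinb8, Serpinb12 and Serpinb7 in the 40 cells, at 46.6, 32.1, 2.99 and 0 CPM, also overlapped those in the other MOF cKO cells. Whether these cells kept MOF was not tested.

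Counted by cell, 25 of 1694 Control epithelial-like cells had a site at the Serpinb2 promoter, or 1.48% (0.957 to 2.17), and 688 of 2644 MOF cKO cells, or 26.0% (24.4 to 27.7). Shares depend on depth, so each cell was also thinned to 5000 sites in shared regions, which left out 265 Control and 40 MOF cKO cells. The share was then 1 of 1429 Control cells, or 0.0700% (0.00177 to 0.389), and 100 of 2604 MOF cKO cells, or 3.84% (3.14 to 4.65). Fibroblast-like cells, with medians of 64413 and 52644 sites per cell, gave 0.322% (2 cells) in Control and 0.244% (3 cells) in MOF cKO after thinning, and 0.607% and 0.399% before it. The thinned MOF cKO share of epithelial-like cells lay above both, while the interval of the Control share, which rests on 1 cell, overlapped theirs. Fragments at Serpinb2 were thus spread over 688 MOF cKO epithelial-like cells.

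**Figure D1:**
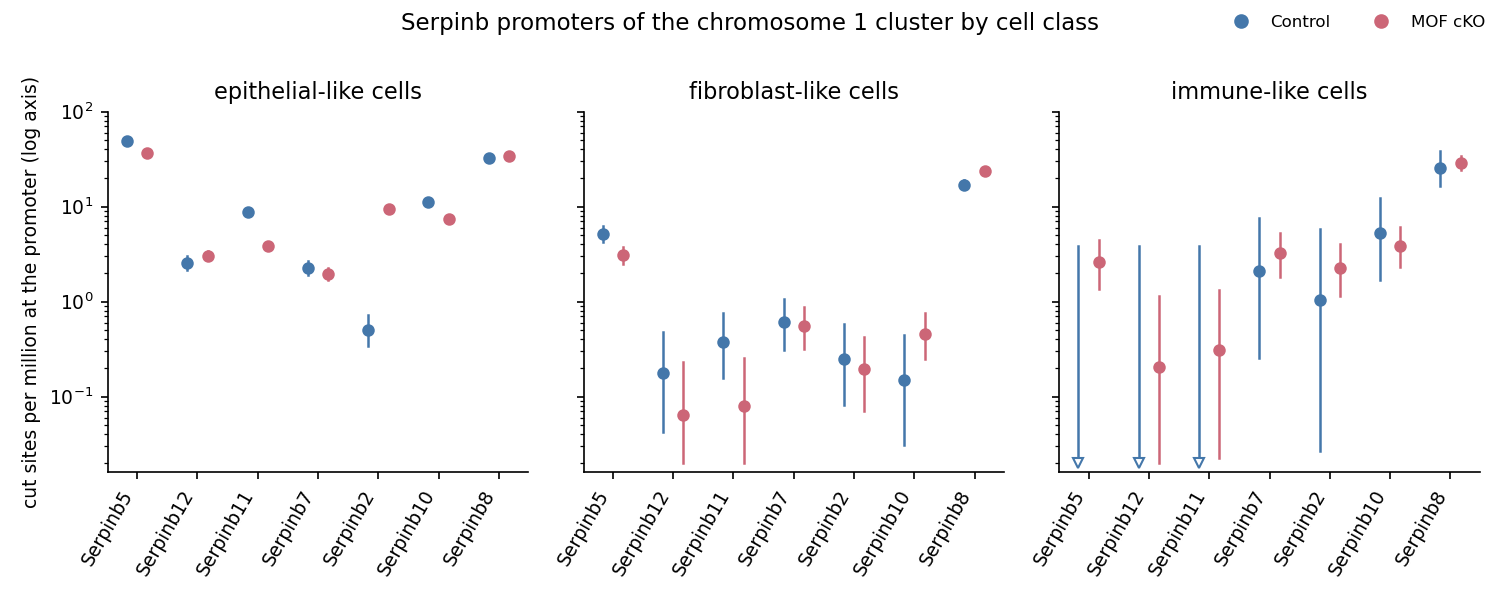
CPM at the promoters of the 7 members with a promoter region in both libraries (log axis), for Control (blue) and MOF cKO (red), in epithelial-like, fibroblast-like and immune-like cells. Points are levels, bars are 95% counting intervals and open triangles are promoters with 0 sites. Serpinb2 is the member whose 2 levels lie farthest apart in epithelial-like cells, at 0.504 and 9.51.

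**Figure D2:**
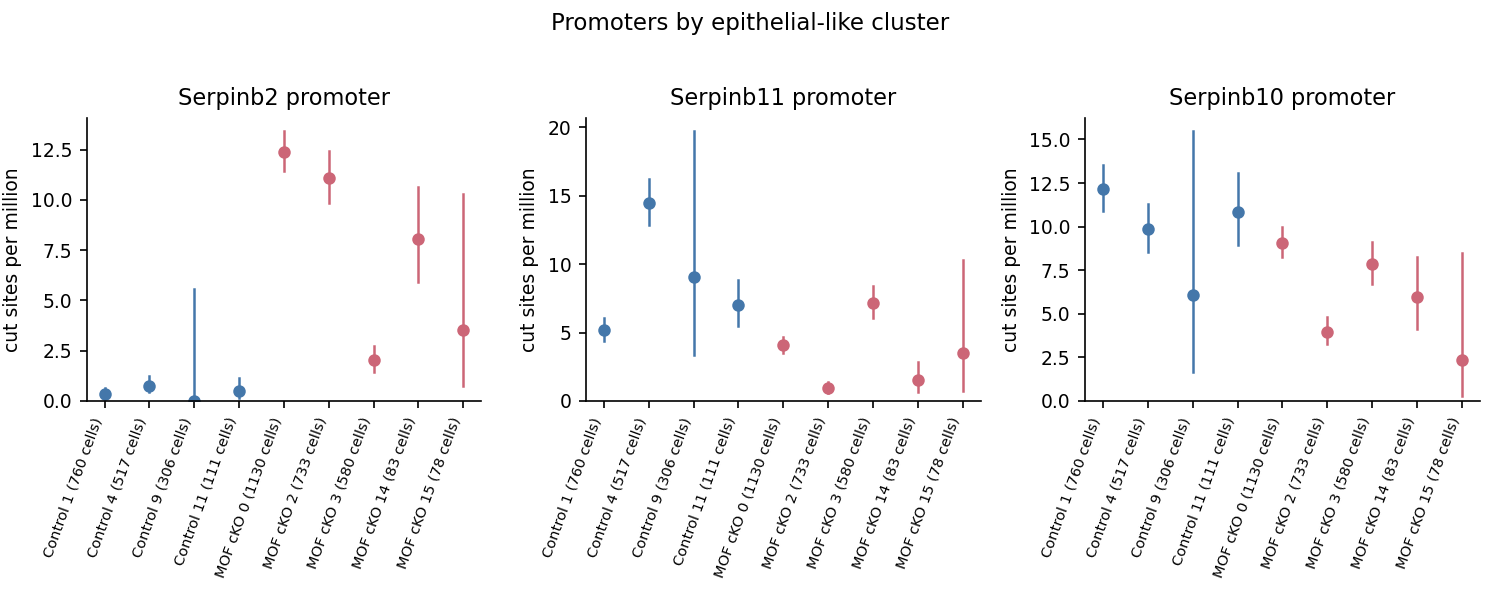
CPM at the Serpinb2, Serpinb11 and Serpinb10 promoters in each epithelial-like cluster of at least 50 cells, Control in blue and MOF cKO in red, with 95% counting intervals. Serpinb2 reached 12.4 and 11.1 in the 2 largest MOF cKO clusters and 2.02 in the cluster of 580 cells.

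Of the 8 members, 7 had a promoter region in both libraries, and 1 of these 7 was 2-fold or more higher in MOF cKO epithelial-like cells. That member was Serpinb2, and over all promoters 2.23% were as much higher. At regions with a peak in both libraries, Serpinb11 was the 1 member that was 2-fold or more lower, where 2.50% of all promoters were. Since the rule used this contrast, nothing is read from these counts. The 7 log2 changes had a median of -0.21, against -0.42 over all promoters.

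In epithelial-like cells Serpinb5 had the highest promoter level of the members. Its 2 promoter regions together stood at 48.4 CPM (46.7 to 50.3) in Control and 36.4 CPM (35.3 to 37.6) in MOF cKO epithelial-like cells. This was a log2 change of -0.41 (-0.48 to -0.34), which is that of the median promoter. The region at the main start site, at 106861173, held 46.8 and 35.8 CPM. The second, at 106870234, held 1.67 and 0.638 CPM, a log2 change of -1.38. In fibroblast-like cells the 2 regions together had 5.16 and 3.06 CPM, most of it at the second start site.

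Serpinb8 was the other strong promoter, and it had the highest level of the members in fibroblast-like and immune-like cells. It had 32.7 CPM (31.3 to 34.2) in Control and 34.2 CPM (33.1 to 35.3) in MOF cKO epithelial-like cells. On the log2 scale the change was 0.06 (-0.02 to 0.14). Its sign changed with the scaling, from -0.08 when scaled to all peaks of each library to 0.24 when scaled per cell. In fibroblast-like cells Serpinb8 had 17.0 and 23.7 CPM, a log2 change of 0.48 (0.29 to 0.67), and in immune-like cells 25.6 and 28.8 CPM. Against the median promoter of epithelial-like cells, the Serpinb8 log2 change was 0.48 higher.

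Serpinb11 had 8.77 CPM (8.03 to 9.56) in Control and 3.84 CPM (3.47 to 4.23) in MOF cKO epithelial-like cells. The log2 change was -1.19 (-1.39 to -1.001). When each value above 0 was counted as 1, its change was -0.95 and no longer past 2-fold. Among the epithelial-like cells of 1 library in a cluster, where they numbered at least 50, it was highest, at 14.5 CPM, in the 517 Control cells in which 7 of 14 hair follicle markers and 3 of 5 periderm markers stood over 1.5-fold above the Control cluster of 760 cells, the only one they were compared with. It was lowest, at 0.951 CPM, in the 733 MOF cKO cells with suprabasal markers. The 580 MOF cKO cells had 7.19 CPM (6.09 to 8.44) and the 1130 MOF cKO cells 4.08 CPM (3.53 to 4.69). Between these lay the 760 Control cells, at 5.17 CPM (4.35 to 6.09). In those 760 cells 3 of 11 suprabasal markers stood over 1.5-fold above the 517 Control cells. The fibroblast-like levels, 0.378 and 0.0805 CPM, rest on 15 and 5 sites. All these Serpinb11 values are from the promoter region with a peak in both libraries. A second promoter region, at the start site 107361929 (chr1:107361882-107362684), was called in MOF cKO alone. That region had 1.87 CPM in MOF cKO epithelial-like cells, is not part of the Serpinb11 change and has no value in Control.

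Serpinb10 is annotated by GENCODE as a polymorphic pseudogene, and the promoter region of its protein-coding transcript (start site 107529003) lies within the body of Serpinb2. It had 11.1 CPM (10.2 to 11.9) in Control and 7.34 CPM (6.82 to 7.88) in MOF cKO epithelial-like cells. This was a log2 change of -0.59 (-0.75 to -0.44). In immune-like cells it had 5.23 CPM from 10 sites and 3.83 CPM from 37 sites. The epithelial-like level was thus above the immune-like level in both libraries, with overlapping intervals in Control only. In fibroblast-like cells its 6 and 28 sites gave 0.151 and 0.451 CPM, a log2 change of 1.58 (-0.26 to 4.02).

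Serpinb12 and Serpinb7 had low promoter levels. Serpinb12 had 2.56 CPM (2.17 to 3.01) in Control and 3.05 CPM (2.73 to 3.41) in MOF cKO epithelial-like cells. On the log2 scale the change was 0.25 (-0.03 to 0.54). These Serpinb12 values are from the region at its second start site, 106938953. A peak at the first, 106934449, was called in MOF cKO alone, with 0.527 CPM in epithelial-like cells, and has no value in Control. Serpinb7 had 2.26 and 1.96 CPM over its 2 promoter regions, a log2 change of -0.21 (-0.53 to 0.12). The 2 Serpinb7 start sites differed: the first, at 107399655, had 0.871 and 0.304 CPM (log2 -1.52) and the second, at 107422689, had 1.39 and 1.65 CPM (log2 0.25). In fibroblast-like cells Serpinb12 had 7 and 4 sites, too few for a change.

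Serpinb13, an inhibitor of cathepsins L and K, had no promoter region. The nearest peak to its start site, at 106980984, was 753 bp away in Control and 771 bp away in MOF cKO, outside the 500 bp window. That region (chr1:106979315-106980231) had 10.98 CPM in Control and 7.02 CPM in MOF cKO epithelial-like cells. Just inside the window was a MOF cKO peak 432 bp from the second Serpinb8 start site, and just outside it a Control peak 577 bp from the second Serpinb11 start site.

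Over the members, the order of promoter levels in Control epithelial-like cells was Serpinb5, Serpinb8, Serpinb10, Serpinb11, Serpinb12, Serpinb7 and Serpinb2. The intervals of Serpinb12 and Serpinb7 overlapped, and those of the other neighbours did not. In MOF cKO cells Serpinb2 stood between Serpinb8 and Serpinb10, and the intervals of Serpinb5 and Serpinb8 overlapped.

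In fibroblast-like cells, 1 of the 6 members with 20 or more sites, Serpinb10, was 2-fold or more higher in MOF cKO, where 1.86% of all promoters were. Another, Serpinb11, was 2-fold or more lower, at log2 -2.23 (-5.08 to -0.03) from 15 and 5 sites, where 0.826% of all promoters were. When values were counted once per cell or cells were thinned, Serpinb10 and Serpinb11 fell below 20 sites and had no value, and Serpinb11 had none without the 10% of cells with the highest doublet score. The 6 changes had a median of -0.26, against -0.03 over all promoters.

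Outside promoters, 73 regions of the cluster had a peak in both libraries and 20 or more epithelial-like sites. In MOF cKO epithelial-like cells 15 of them (20.5%, 12.0 to 31.6) were 2-fold or more higher, near the 18.0% of all regions outside promoters, and 7 (9.59%, 3.94 to 18.8) were 2-fold or more lower, against 13.4%. The median log2 change was 0.02, against -0.11 over all regions. In fibroblast-like cells 3 of the 50 regions with 20 or more sites there were 2-fold or more higher, against 11.7% of all regions, and 7 (14%, 5.82 to 26.7) were 2-fold or more lower, against 7.76%. Their median log2 change was -0.34, against 0.04 over all regions. One of the 3 higher regions, at -15.6 kb from the Serpinb2 start site, had 0 Control and 22 MOF cKO sites, so its fold has no finite value. Of the 15 regions higher in epithelial-like cells, 8 had a finite change in fibroblast-like cells, and there 1 of these 8 was 2-fold or more higher and 2 were 2-fold or more lower, with a median of -0.31.

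The regions with higher levels lay in all 4 stretches of the cluster. From Serpinb5 to Serpinb13, 1 of 17 regions was 2-fold or more higher and 3 were lower. Among the Serpinb3 genes 2 of 11 were higher and none was lower. From Serpinb11 to Serpinb7, 7 of 21 were higher and 2 lower, and from the end of Serpinb7 to Serpinb8, 5 of 24 were higher and 2 lower. Over all regions outside promoters 18.0% were higher and 13.4% lower, and the intervals of all 4 stretches included both shares. For example, 7 of 21 is 33.3% (14.6 to 57.0) and 1 of 17 is 5.88% (0.149 to 28.7). The stretch from Serpinb5 to Serpinb13 had a median log2 change of -0.25 and that from Serpinb11 to Serpinb7 one of 0.28, against -0.11 over all regions. No difference between stretches is read from these values.

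The region with the largest gain lay between Serpinb10 and Serpinb8, 71.6 kb downstream of the Serpinb2 start (chr1:107582552-107583590, intergenic). It had 0.769 CPM in Control and 6.20 CPM in MOF cKO epithelial-like cells. The log2 change was 3.01 (2.57 to 3.48). In immune-like cells it had 26.1 and 31.9 CPM, and in fibroblast-like cells 0.428 and 0.451 CPM. Its level was thus highest in immune-like cells in both libraries.

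The next lay at -15.6 kb from the Serpinb2 start site (chr1:107495349-107496286, intergenic), with 0.649 CPM in Control and 5.06 CPM in MOF cKO epithelial-like cells. This was a log2 change of 2.96 (2.49 to 3.48). It had 7.19 CPM in the 733 cells, 5.61 CPM in the 1130 cells and 1.83 CPM in the 580 cells, so that the 580 cells were again the lowest of the 3. Another lay in an intron of Serpinb7 (chr1:107419392-107420547), with 1.22 and 6.40 CPM, a log2 change of 2.39 (2.04 to 2.76). Among the 3 largest MOF cKO clusters it was highest, at 14.2 CPM, in the 733 cells with suprabasal markers, against 4.26 and 1.79 CPM in the 1130 and the 580 cells.

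A region nearer to Serpinb2 lay at -5.305 kb from the Serpinb2 start site (chr1:107505645-107506592, intergenic), and its values were seen before it was chosen to be named. It had 7.42 CPM in Control and 22.6 CPM in MOF cKO epithelial-like cells. On the log2 scale the change was 1.61 (1.46 to 1.76). Unlike the Serpinb2 promoter, it was high in all 3 large MOF cKO clusters, at 24.9, 21.3 and 21.8 CPM in the 1130, 733 and 580 cells. In the 760 and 517 cells of the largest Control clusters it had 9.56 and 5.80 CPM. The 580 cells thus had 21.8 CPM at this region and 2.02 CPM at the Serpinb2 promoter. In immune-like cells the region had 6.27 and 12.9 CPM. In fibroblast-like cells its levels were low, at 0.353 and 0.725 CPM, a log2 change of 1.04. It was thus also 2-fold or more higher in that class.

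Among regions with lower levels and 500 or more sites, the one with the largest loss overlapped an exon of Serpinb5 (chr1:106875035-106875933), with 5.34 CPM in Control and 1.18 CPM in MOF cKO epithelial-like cells. The log2 change was -2.18 (-2.49 to -1.87). In fibroblast-like cells it had 2.97 and 1.01 CPM, a log2 change of -1.55. The second lay in an intron of Serpinb7 (chr1:107430377-107431246), with 2.94 and 0.966 CPM (log2 -1.60). The last, intergenic and at -37.3 kb from the Serpinb2 start site (chr1:107473653-107474655), had 22.9 and 12.2 CPM, a log2 change of -0.90 that did not reach 2-fold.

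Beside the Serpinb10 promoter region, which had 11.1 and 7.34 CPM, the Serpinb2 body held 1 other region with a peak in both libraries, in an intron shared with Serpinb10. It had 1.998 CPM in Control and 0.875 CPM in MOF cKO epithelial-like cells. This was a log2 change of -1.19, while the promoter was higher. In Serpinb11 the body regions had 3.63 and 7.87 CPM, a log2 change of 1.12 (0.90 to 1.34), while the promoter region with a peak in both libraries was lower. The second Serpinb11 promoter region, called in MOF cKO alone at 1.87 CPM, is not part of that contrast. In fibroblast-like cells the Serpinb11 body had 6.98 and 3.25 CPM, so the level was higher in MOF cKO in one class and lower in the other. This difference was not tested. The region that carried it lay in an intron (chr1:107365575-107366604), with 1.42 and 6.03 CPM in epithelial-like cells and 6.42 and 3.04 CPM in fibroblast-like cells.

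**Figure D3:**
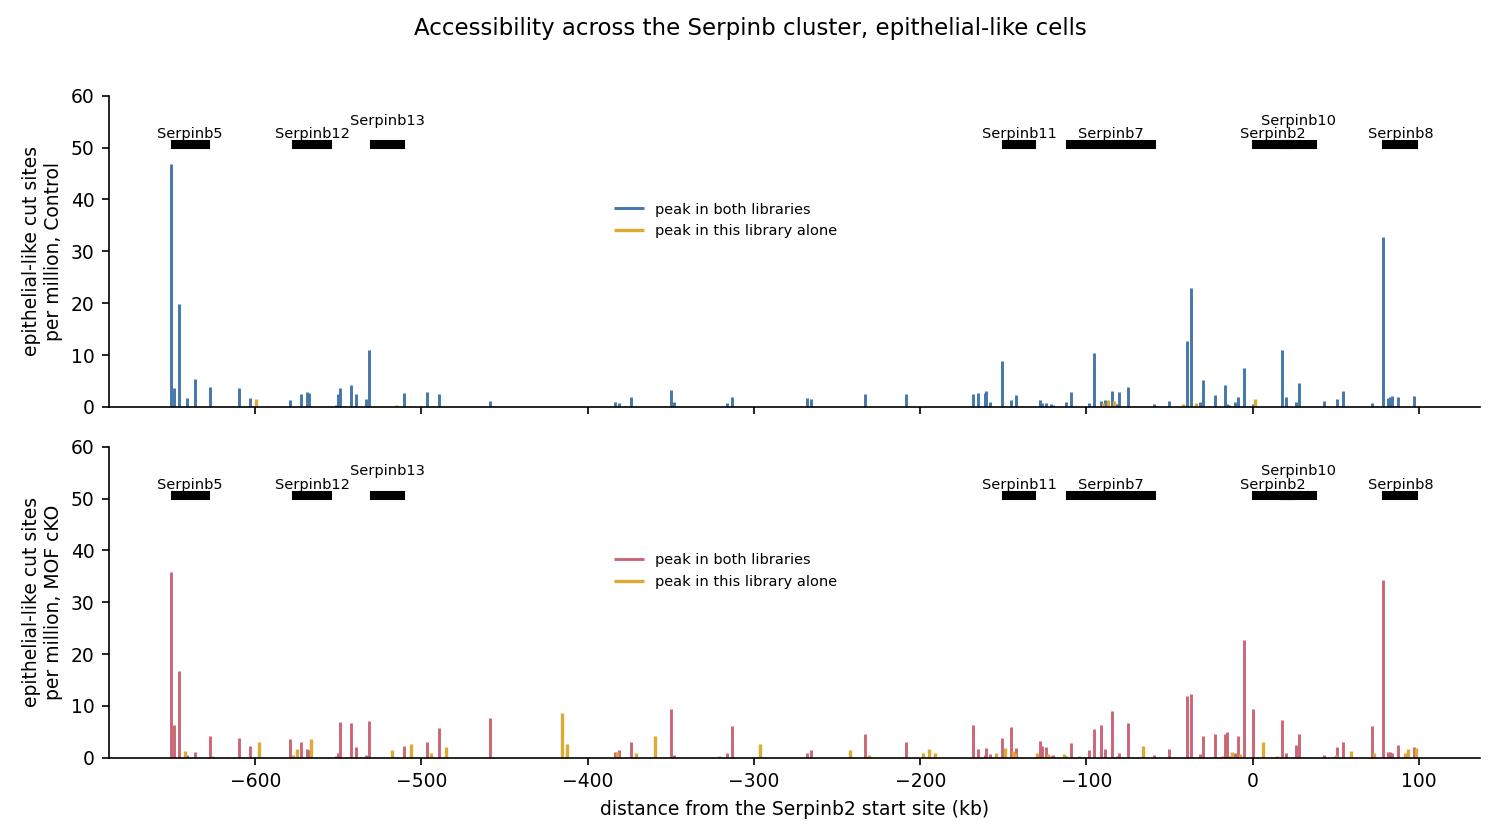
CPM in epithelial-like cells at each region of the Serpinb cluster, against the distance of its centre from the Serpinb2 start site in kb, for Control (top) and MOF cKO (bottom). Yellow lines are peaks called in that library alone and black bars are gene bodies of the members. The Serpinb5 promoter, at 46.8 and 35.8, is the tallest in both libraries, the Serpinb8 promoter, at 32.7 and 34.2, is next, and the Serpinb2 promoter at 0 stands at 0.504 and 9.51, below the region at -5.305 kb in both libraries.

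**Figure D4:**
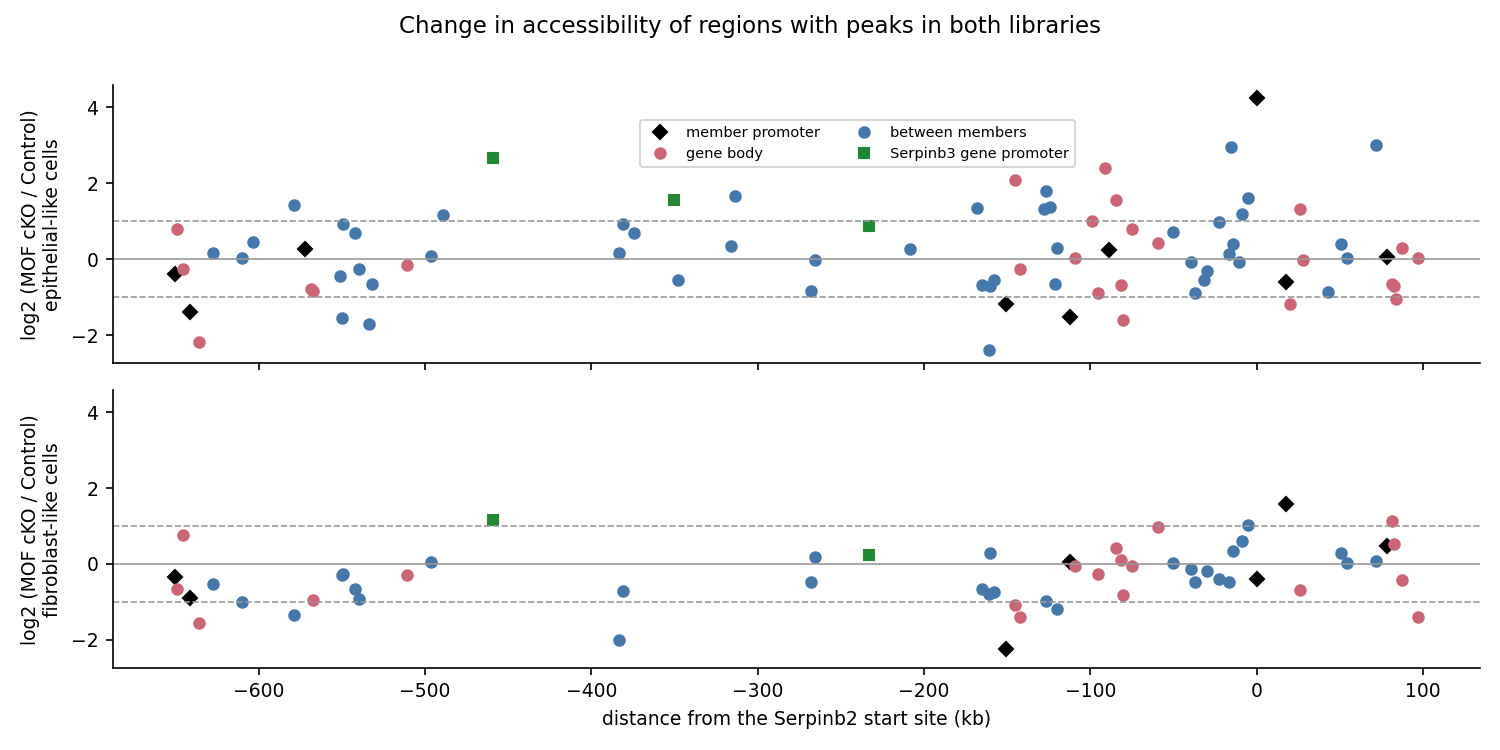
Log2 of the MOF cKO over the Control level at regions with a peak in both libraries and 20 or more sites in the class, against distance from the Serpinb2 start site, for epithelial-like (top) and fibroblast-like cells (bottom). Dashed lines mark 2-fold, diamonds are member promoters and squares are Serpinb3 promoters; regions with 0 sites in a library have no finite value and are not drawn, and the Serpinb2 promoter lies at 4.24 in epithelial-like and at -0.38 in fibroblast-like cells.

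Peaks were called in each library separately. The cluster held 93 Control peaks and 130 MOF cKO peaks, and 66.9% (58.1 to 74.9) of the MOF cKO peaks overlapped a Control peak, against 64.0% over all chromosomes. Of the Control peaks 91.4% overlapped, against 86.8% over all chromosomes. A peak of 1 library alone has no value in the other, so no change can be given there. The MOF cKO library has more cells and the deeper total, which was not tested as a source of the difference.

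There were 8 Control regions and 43 MOF cKO regions of 1 library alone. Of the 43, 15 lay among the Serpinb3 genes, where 14 regions were called in both libraries and none in Control alone. Over all chromosomes 122539 regions were of MOF cKO alone and 32976 of Control alone, beside 214119 called in both. Reads among the Serpinb3 genes may be assigned to the wrong copy, and nothing is read from the count there. The strongest region of MOF cKO alone, intergenic at chr1:107095453-107096376, had 8.62 CPM in MOF cKO epithelial-like cells, 0.193 CPM in fibroblast-like and 0 in immune-like cells. The strongest of Control, at chr1:106911309-106912247, had 1.55 CPM in epithelial-like cells. In addition, a Control peak in the first part of the Serpinb2 body (chr1:107512062-107512914), with 1.51 CPM in epithelial-like cells, had no MOF cKO counterpart.

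Of the 43 regions of MOF cKO alone, 30 (69.8%, 53.9 to 82.8) were highest in epithelial-like cells among the epithelial-, fibroblast- and immune-like classes, against 60.7% of all MOF cKO regions alone, and 13 (30.2%, 17.2 to 46.1) in immune-like cells, against 24.2%. In 8 (18.6%) the immune-like level was at least 2-fold the epithelial-like one, near the 17.6% over all such regions. The highest of these, between Serpinb10 and Serpinb8 (chr1:107583874-107584669), had 21.7 CPM in immune-like and 0.908 CPM in epithelial-like cells. In the Serpinb2 body a region at chr1:107513419-107514339 had 10.9 and 0.256 CPM. The MOF cKO library held 281 immune-like cells and Control 46, and the part of that difference in these peak calls was not tested.

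**Figure D5:**
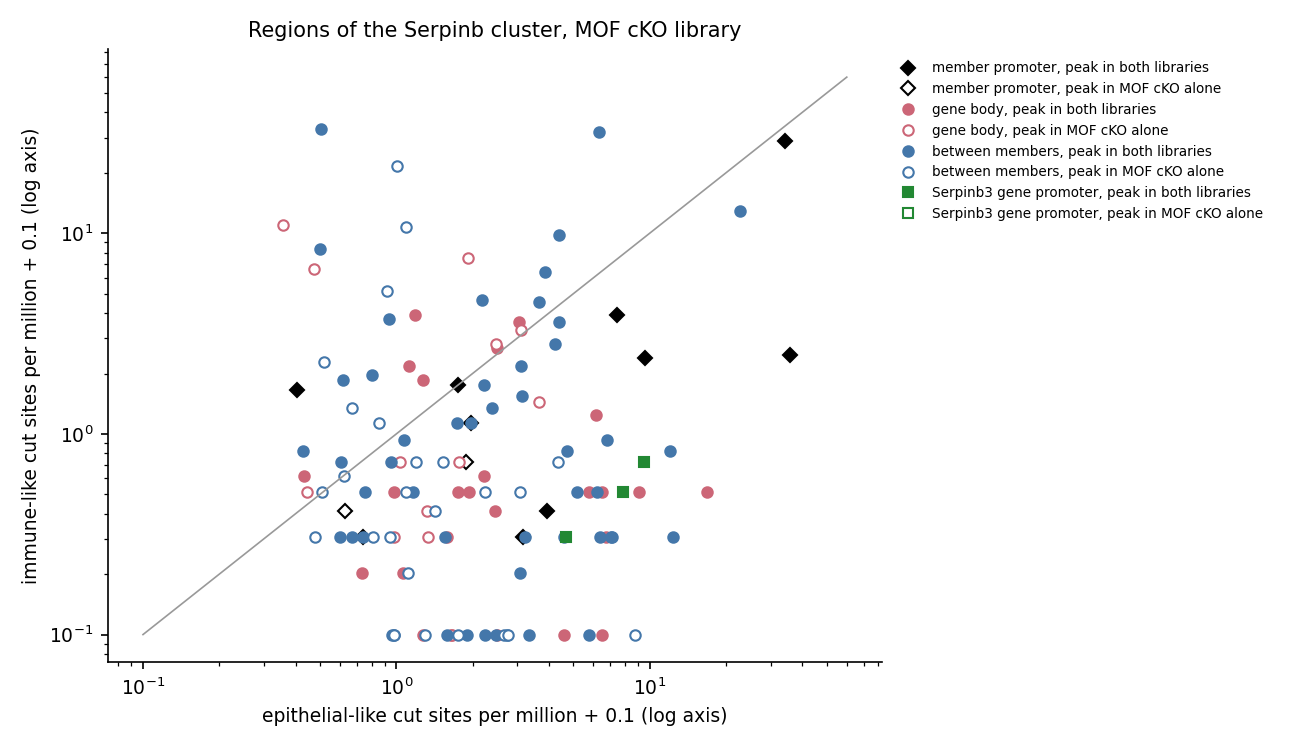
CPM, with a small constant added, in MOF cKO epithelial-like cells (x, log axis) and in MOF cKO immune-like cells (y, log axis) for each region of the cluster with a MOF cKO peak. Filled symbols had a peak in both libraries and open ones in MOF cKO alone, and the line marks equal levels. The region at -14.3 kb from the Serpinb2 start site lies at the upper left, with 32.9 immune-like and 0.406 epithelial-like.

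AP-1 letters TGACTCA, in either direction, were looked for in the central 400 bp of each region, since AP-1 factors act in stressed and wounded epidermis. They were in 8 of the 15 regions of the cluster that were 2-fold or more higher in MOF cKO epithelial-like cells (53.3%, 26.6 to 78.7), near the 53.7% of all 35158 such regions. They were in 1 of the 7 lower regions (14.3%), against 4.01% over all lower regions, and in 8 of the 51 others (15.7%), against 13.3%. The share in the higher regions of the cluster was thus near that of higher regions elsewhere. Among regions of MOF cKO alone the share was 34.9% (15 of 43), against 38.9% over all such regions, and among the 8 Control regions it was 0, against 4.20%.

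Other letters were chosen after the values were seen. The C/EBP letters TTGCNNAA were in 2 of the 15 higher regions (13.3%), against 19.2% of all higher regions, and in 3 of the 7 lower ones, against 19.8%. The CRE letters TGACGTCA were in 0 of 73 regions, against 0.663% of all regions, and the grainyhead letters AACCNGTT in 4 of 73 (5.48%), against 4.20%. In promoter windows of the RefSeq table (250 bases before to 50 after a start, GRCm38.p6), 9 windows matched 7 members, and TGACTCA was in 2 of them, those of Serpinb7 and Serpinb8. It was in 5.202% of all 32851 windows. TTGCNNAA was in 3 of the 9 windows, of Serpinb2 and Serpinb12, and in 10.8% of all windows. TATAAA was in 5 of the 9, of Serpinb2, Serpinb7 and Serpinb12, and in 13.6% of all windows. The Serpinb2 windows, chr1:107511173-107511472 and chr1:107511260-107511559, overlap, and the TATAAA printed above lies in both. The same letters are thus counted in each, so the 9 windows are not separate promoters.

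The Serpinb3 paralogs lie in the middle of the cluster and are similar to each other, so reads there may be assigned to the wrong copy. Serpinb3a had 1.23 CPM in Control and 7.72 CPM in MOF cKO epithelial-like cells. On the log2 scale the change was 2.65 (2.30 to 3.02). Serpinb3b had 5.70 and 13.99 CPM (log2 1.29) and Serpinb3c 2.502 and 4.58 CPM (log2 0.87), with 1 region counted for both. Serpinb3d had no value. So 2 of the 3 measured paralogs were 2-fold or more higher, beside 2.23% of all promoters, and in fibroblast-like cells they rested on 7 to 28 sites per library.

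Of 15 Serpinb genes on chromosome 13, 8 had a value. Serpinb9b (log2 1.58) and Serpinb9c (log2 1.18), which are close paralogs, were 2-fold or more higher in MOF cKO epithelial-like cells, beside 2.23% of all promoters. Serpinb9 (log2 -1.51) and Serpinb6b (log2 -1.09) were 2-fold or more lower in the same cells, beside 2.50%. Serpinb1a (-0.68), Serpinb1b (-0.84), Serpinb6a (-0.56) and Serpinb6c (0.70) did not reach 2-fold on the log2 scale, and the median of the 8 was -0.62. The 5 protein-coding genes within 1 Mb on either side of the cluster, Bcl2, Kdsr, Phlpp1, Vps4b and Zcchc2, had log2 changes from -0.59 to -0.47, and none passed 2-fold. Among 16 proteases and related genes, 11 had a value. Furin, the target of Serpinb8, had 1.54 and 4.09 CPM (log2 1.41) and was the 1 that was 2-fold or more higher, beside the same 2.23%. Ctsk, cathepsin K, had 2.45 and 1.03 CPM (log2 -1.25) and was the 1 that was 2-fold or more lower, beside 2.50%. Plau, which encodes urokinase, had 20.7 and 17.8 CPM (log2 -0.22), and Plaur, its receptor, 14.2 and 19.4 CPM (log2 0.44).

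The 5 promoters whose level over the 17 clusters of at least 50 cells was most like that of Serpinb2 were Cd101, Il1a, Sdcbp2, Spata45 and Gm4131, with Pearson r of log2(CPM + 1) from 0.907 to 0.929 among 14591 genes. These clusters share 2 libraries, so r is a description. By the same measure Serpinb3a ranked 14th (r = 0.860), ahead of Serpinb12 (rank 405, r = 0.508), Serpinb8 (839), Serpinb5 (996), Serpinb7 (1463) and Serpinb11 (1939, r = 0.0792). Serpinb10 was not ranked, since only genes annotated as protein-coding were.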

How the data were processed

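Single-cell ATAC-seq was done on 1 Control and 1 MOF cKO library. The authors aligned reads to mm10 with cellranger-atac and called peaks and cells in each library separately; the deposited matrices hold raw counts of cut sites per peak and barcode (88.8% and 91.6% of values were even), not normalized. Barcodes with 1000 or more sites were kept (2481 and 4348). Peaks were merged across libraries, and regions with a peak from each were compared. Within a region the sites of each library were counted in its own peaks. Cells were clustered on 50000 regions outside the locus and 1000000 bp around it (Leiden, resolution 1, 19 clusters), and clusters were named from fixed marker lists; no doublets were removed. Counts of all cells in a class were added up within each library and scaled to the sites in shared regions. Intervals (95%, exact Poisson, conditional binomial or binomial) treat every 2 sites as 1 fragment and cover counting error only; with 1 library per genotype no test was made. A region or promoter needed 20 sites over both libraries in a class for a change. Depth was 169641002 sites in Control and 324310197 in MOF cKO.

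Promoters were regions within 500 bp of a start site of a protein-coding transcript in GENCODE, and for Serpinb10 of its protein-coding transcript. Peaks lay within the GRCm38.p6 chromosome lengths. All 8 members are named; named regions are the 3 with the largest gain and the 3 with the largest loss among those with 500 or more epithelial-like sites. The members, lists and tests were chosen with earlier results of these data known. The ratio of the sort is given differently in the sources used here; 5:1 is per the labels. Work used Python 3.11.15, numpy 2.4.6, pandas 2.3.3, scipy 1.17.1, pysam 0.24.0, scikit-learn 1.9.0, leidenalg 0.10.2 and matplotlib 3.10.9. The fold calculation was tested on simulated data.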

Additional observations from a re-analysis of the deposited data

Results flagged for a closer look

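Member promoters, gene bodies and regions outside promoters were compared between each pair of the epithelial-, fibroblast- and immune-like classes. For epithelial- and fibroblast-like cells 6 promoters, 7 gene bodies and 49 regions were compared. The numbers were 4, 2 and 16 for epithelial- and immune-like cells, and 4, 2 and 15 for fibroblast- and immune-like cells. In 4 of these results the MOF cKO level was higher than Control in one class and lower in the other, with both counting intervals clear of 0. The share over all promoters or regions is not given here, so nothing is read from the number of such results. With 1 library per genotype, the difference between the classes was not tested. The Serpinb11 gene body had a log2 change of 1.12 (0.90 to 1.34) in epithelial-like cells and -1.10 (-1.49 to -0.72) in fibroblast-like cells. Within it, the intron region at chr1:107365575-107366604 had 2.09 (1.76 to 2.44) and -1.08 (-1.48 to -0.68). A region in an intron of Serpinb5 (chr1:106865183-106866511) had 19.8 CPM in epithelial-like cells of Control and 16.7 CPM in those of MOF cKO. On the log2 scale this was -0.25 (-0.36 to -0.14), while in fibroblast-like cells 2.82 and 4.77 CPM gave 0.76 (0.30 to 1.23). Here Control had 1 peak of 783 bp and MOF cKO 2 peaks covering 1214 bp, so sites were counted over unlike widths. The part of the width in the fibroblast-like gain was not tested. An intergenic region between Serpinb5 and Serpinb12 (chr1:106932043-106933038) had 1.33 and 3.55 CPM in epithelial-like cells, at log2 1.41 (1.06 to 1.79), and 18.8 and 4.46 CPM in immune-like cells, at log2 -2.08 (-3.05 to -1.09). The larger of 2 immune-like clusters held 24 of the 46 immune-like Control cells and 244 of the 281 of MOF cKO, and the part of this in the immune-like values was not tested.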

How the results depend on the processing

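No leave-one-out fit and no paired analysis was possible because each genotype has 1 library. Of 97 alternatives for the main results, 88 gave the same count, a count near it or a value within its counting interval, and 9 did not. Counts taken as near ran from 14 to 19 for the 15 higher epithelial-like regions and from 6 to 10 for the 7 lower ones. For the 3 higher fibroblast-like regions a count of 2 was taken as near. Thinning cells to 5000 sites moved the Serpinb2 promoter change in epithelial-like cells from 4.24 to 5.92 (log2). The thinned Control level rests on 1 of 1429 cells, so the size of that change is uncertain. Over its 11 alternatives the Serpinb2 change ran from 3.79 to 5.92. The 1 member promoter higher in fibroblast-like cells was 0 when values were counted once per cell and 0 when cells were thinned, since Serpinb10 then had under 20 sites and no value (3 and 2 members had one). The 3 fibroblast-like regions outside promoters that were 2-fold higher became 1 when scaled per cell, 1 without the 10% of cells with the highest doublet score, 1 when thinned, 0 when values were counted once per cell, 0 with at least 100 sites per region and 11 with no minimum. Regions with a value were 50 in the main setting and per cell, 41 without those cells, 6 when thinned, 21 when counted once per cell, 12 with at least 100 sites and 73 with no minimum, and for the scaling per cell the cause was not tested. Of 115 alternatives for other values of single promoters 18 moved, and fibroblast-like Serpinb5, at log2 -0.76, was past 2-fold lower when scaled per cell (-1.04) or thinned (-1.28). Scaling moved the median of all epithelial-like promoters from -0.42 to -0.56 (all peaks of each library), -0.26 (median-of-ratios) and -0.24 (per cell), and the changes of members move with it. Under these 3 scalings 15, 19 and 19 of the 73 epithelial-like cluster regions were 2-fold or more higher, where 15 of 73 is 20.5%. Over all regions the shares were 15.8, 20.7 and 21.1%. Of the same 73 regions 10, 6 and 6 were lower, and over all regions the shares were 17.4, 9.83 and 9.35%. The AP-1 share over all its alternatives ran from 40 to 57.1%. The MOF cKO peaks of the cluster that overlapped a Control peak were 65.4% with an overlap of at least 50% of the MOF cKO peak and 72.8% with equal numbers of peaks. Leaving out the clusters with high doublet score or the shallow cluster, chosen after seeing the data, gave 1 member promoter and 15 and 16 regions higher.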
